A study of Mus musculus with 4 samples.

Results

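The replication-dependent histone genes are the clustered genes that supply most of the histone protein of a dividing cell. They were taken here as every gene of the feature table whose symbol starts with Hist1h, Hist2h, Hist3h or Hist4h, which gave 67 of 31053 genes. Of these, 54 belong to the Hist1 locus, 10 to Hist2, 2 to Hist3 and 1 to Hist4, and they encode 6 linker histones H1, 18 H2A, 18 H2B, 12 H3 and 13 H4. The rule uses symbols alone. At least 1 transcript was counted for 63 of the 67, and 33 had at least 100. Hist1h2bq, Hist1h1t, Hist1h2ba and Hist1h2aa had none.

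The data are 4 single-cell RNA libraries of whole lung from B6 mice that carried tumours grown from intravenously injected KP cells, a mouse lung cancer line. KO anti-PD-1 mice carried Asf1a-knockout KP cells and received the PD-1 blocking antibody 29F.1A12 at 200 µg per mouse, 3 times a week for 1 week. KO IgG mice carried the same knockout cells and received isotype IgG. WT anti-PD-1 mice carried KP-WT cells and received the antibody, and WT IgG mice carried KP-WT cells and received IgG. Each group is 1 library, and the labels give neither the number or age of the mice behind it nor whether the knockout line is 1 clone. The knockout is in the injected tumour cells, so the host cells carry an intact Asf1a. Asf1a encodes a chaperone that carries histones H3 and H4 to the assembly of nucleosomes.

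The core histones H2A, H2B, H3 and H4 form the nucleosome, and H1 binds the linker DNA between nucleosomes. Replication-dependent histone genes are transcribed mainly in S phase, when the new DNA has to be packed, and most of their messages end in a conserved stem-loop in place of a poly(A) tail. The stem-loop is bound by SLBP, which takes part in processing, translation and decay of the message. Some members are also known to give longer, polyadenylated messages in cells that have left the cycle. The libraries were made from poly(A) RNA with a 3′ kit, so the counts are of messages that could be primed at an A-rich stretch, and a level here is not the total histone message of a cell. Replacement histones such as H2afz and H3f3b are encoded elsewhere and are made throughout the cycle.

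Counts are unique molecular identifiers (UMIs), each standing for 1 captured molecule, and levels are UMIs per 1e6 UMIs (CPM) of the summed cells of a class. The 4 libraries held 6094, 6362, 6683 and 6074 barcodes and 16078095, 17578188, 22369904 and 22506737 UMIs, in the order KO anti-PD-1, KO IgG, WT anti-PD-1 and WT IgG, and 5595, 5919, 6187 and 5659 cells were kept. A cell was called cycling when it held at least 2 UMIs of Mki67 and Top2a together, both genes of proliferating cells. Cell classes were named from marker genes after clustering in which neither the histone genes nor the cell cycle genes took part, so each class is T cell-like, tumour cell-like and so on, and the suffix is left out from here on. Tumour cells were 11 sub-clusters named from markers such as Krt8, Krt18 and Krt19, keratins of epithelial cells, and 24 cells led by Scgb1a1 and Sftpc, markers of normal airway and alveolar epithelium, were kept out of them. Tumour cells numbered 143, 227, 119 and 118 in the same order. Asf1a was at 7.60 and 9.72 CPM in the tumour cells of KO anti-PD-1 and KO IgG, against 29.9 and 34.0 CPM in those of WT anti-PD-1 and WT IgG. In all other cells it was between 16.6 and 18.7 CPM in the 4 libraries. These are 3′ tags and the labels do not give the edited position, so the level does not check the knockout itself.

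The KO anti-PD-1 library stood apart in a set of histone genes among the host cells, which do not carry the knockout. Hist1h1e, a linker histone, had 19.3 CPM in non-tumour cells of KO anti-PD-1, against 78.7 in KO IgG, 82.8 in WT anti-PD-1 and 89.1 in WT IgG. The ratio of KO anti-PD-1 to the other 3 libraries pooled was 0.229 (95% Poisson interval 0.201 to 0.260), and KO anti-PD-1 was lowest in 7 of 7 non-tumour classes. Hist1h1b, another linker histone, followed with 7.62 CPM in KO anti-PD-1, against 29.9, 40.1 and 45.7 CPM in KO IgG, WT anti-PD-1 and WT IgG. The H2A gene Hist1h2ae had 9.18 CPM in KO anti-PD-1 and 29.7, 35.3 and 36.3 CPM in the others, and the H4 gene Hist1h4d 7.54 CPM against 17.6, 22.6 and 23.5 CPM. Other members did not share this order. Hist1h2ap, the leading H2A gene, was at 125 CPM in KO anti-PD-1, against 76.8, 73.9 and 126 CPM in the others, and Hist2h2aa1 at 22.7 CPM against 20.8, 9.88 and 14.9 CPM. Hist1h2bc, the leading H2B gene, had a ratio of 0.986 (0.930 to 1.05) and Hist3h2a one of 1.02. Of 59 members with at least 20 UMIs, none was 2-fold higher and 15 were 2-fold lower in KO anti-PD-1, where 2.63% of 13888 genes were 2-fold higher and 3.57% 2-fold lower. In non-cycling host cells alone, 0 of 50 members were 2-fold higher and 10 lower, against 2.56% and 3.54% of 13745 genes. In cycling host cells alone, 4 of 38 were 2-fold higher and 10 lower, against 4.27% and 7.76% of 9088 genes. There Hist1h2bc had 168 CPM in KO anti-PD-1, against 116, 45.6 and 69.2 CPM in KO IgG, WT anti-PD-1 and WT IgG, a ratio of 2.47 (1.94 to 3.13), and the ratio of Hist1h2ap was 1.99. Hist1h1e and Hist1h1b stayed low there, at ratios of 0.167 and 0.226. These cells are pooled over classes whose mix differs. T cells were 58 of 104 in KO anti-PD-1, 20 of 70 in KO IgG, 103 of 178 in WT anti-PD-1 and 75 of 151 in WT IgG. Within cycling T cells Hist1h2bc had 63.8 CPM in KO anti-PD-1, against 65.9, 12.7 and 24.8 CPM in KO IgG, WT anti-PD-1 and WT IgG. Within cycling dendritic cells it had 150 CPM, against 141, 111 and 131 CPM. Median UMIs per kept cell were 1339 and 1220 in KO anti-PD-1 and KO IgG and 1881 and 2026 in WT anti-PD-1 and WT IgG, and KO anti-PD-1 had the fewest UMIs in all. These intervals cover counting error only, and the part of depth, of class mix and of library preparation in the difference was not tested.

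**Figure D1:**
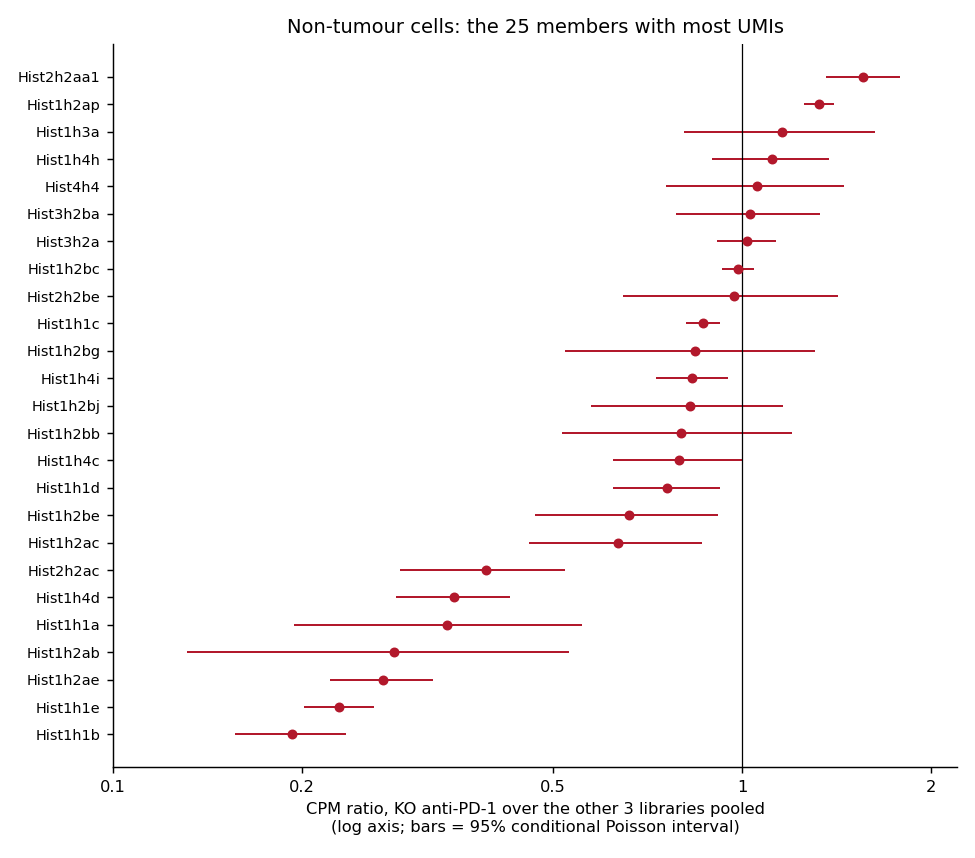
Ratio of CPM in KO anti-PD-1 to the other 3 libraries pooled, for non-tumour cells (x axis, log scale) and the 25 members with most UMIs (y axis); points are ratios and bars 95% conditional Poisson intervals. Hist1h1b and Hist1h1e lie lowest, at 0.192 and 0.229, while Hist1h2ap and Hist2h2aa1 lie above 1, at 1.32 and 1.56.

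The message ends are shown first, because they bear on what a poly(A)-primed library can count. In the GENCODE M21 transcript models (GRCm38), 52 of the 67 members have an annotated 3′ UTR of at least 20 bases, and 45 of these (86.5%) hold the histone stem-loop, against 38 of 20817 other genes (0.183%). The windows below give the stem-loop in capitals and its flanks in lower case, 5′ to 3′ on the strand of the gene. All are on chromosome 13, except Hist3h2a on chromosome 11 and Hist2h2aa1 on chromosome 3.
Hist1h2ap: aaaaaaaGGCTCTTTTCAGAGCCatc
Hist1h2ae: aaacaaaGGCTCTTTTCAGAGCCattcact
Hist2h2aa1: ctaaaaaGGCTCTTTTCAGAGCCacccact
Hist3h2a: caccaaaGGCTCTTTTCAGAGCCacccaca
Hist1h1e: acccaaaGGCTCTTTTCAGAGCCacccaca
Hist1h1c: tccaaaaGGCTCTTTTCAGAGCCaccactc
Hist1h4d: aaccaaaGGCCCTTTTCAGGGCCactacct
Hist1h4i: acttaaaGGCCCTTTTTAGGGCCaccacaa
The H1 and H2A genes in this set share 1 stem-loop sequence, and both H4 genes carry another stem. The models differ in what follows it. That of Hist1h2ap ends 3 bases after the stem-loop and that of Hist2h2aa1 35 bases after, whereas the models of Hist1h1c, Hist1h1e and Hist3h2a run on for 840, 1153 and 1643 bases.

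The polyadenylation signal AATAAA stands within 40 bases of the annotated end in 14 of the 52 members (26.9%), against 59.9% of other genes. The following windows show it in capitals for members that the results below set apart.
Hist1h1c: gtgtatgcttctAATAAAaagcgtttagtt
Hist1h2ae: cccagcttctccAATAAAtgggtcaatttt
Hist3h2a: aggtatatgcccAATAAAataagagtacgt
Hist1h2bc: tgatgtatatatAATAAAtgtcatgtaaag
In Hist1h2bc, whose model holds no stem-loop, the signal lies 447 bases before the annotated end, and in the other 3 it lies 26 to 34 bases before it. By transcript model, 22 members that end within 100 bases of the stem-loop held 24.04% of member UMIs, 23 that run further held 47.6%, 7 without a stem-loop 22.5% and 15 without an annotated 3′ UTR 5.90%. Near-identical copies limit some of these assignments. Every 90-base stretch of the last 400 bases of Hist1h2ap also occurs in Hist1h2ao, that of Hist2h2aa1 in Hist2h2aa2, and that of Hist1h1e in the overlapping model of Hist1h2be. Hist1h2br shares all of its stretches with Hist1h2bq, so the count of 0 for Hist1h2bq cannot be read on its own. Of the same stretches, 71.4% of those of Hist1h3e, 66.2% of those of Hist1h2ab, 49.2% of those of Hist1h4h, 46.3% of those of Hist1h2bb, 45.8% of those of Hist1h4b, 41.8% of those of Hist1h2bj and 37.0% of those of Hist1h2ae occur in other genes. How such reads were assigned by the authors is not stated in the labels or headers, so levels of all these genes are uncertain and may stand for their copies. Hist1h2bc, Hist1h1b, Hist1h1c, Hist1h4d, Hist1h4i and Hist3h2a share no stretch.

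Promoters were compared because many members moved together in cycling cells. RefSeq windows (GRCm38.p6) from 250 bases before to 50 after the start were matched for 61 of the 67 members; Hist1h2bc and Hist1h2ap are among those not matched. Below are 3 members that were higher in cycling cells of 3 classes and, last, Hist1h1c, which was called in 1 of them; the TATA box (TATAAA), the NF-Y box (CCAAT) and the octamer (ATTTGCAT) are in capitals on either strand.
Hist1h1b (chr13:21780576-21780875, minus strand): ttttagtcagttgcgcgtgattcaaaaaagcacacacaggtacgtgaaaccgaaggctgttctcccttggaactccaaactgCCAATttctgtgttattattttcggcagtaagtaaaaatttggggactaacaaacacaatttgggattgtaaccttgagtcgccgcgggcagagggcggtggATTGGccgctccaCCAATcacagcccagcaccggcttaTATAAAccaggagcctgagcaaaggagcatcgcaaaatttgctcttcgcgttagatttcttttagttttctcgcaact
Hist1h1e (chr13:23622509-23622808, minus strand): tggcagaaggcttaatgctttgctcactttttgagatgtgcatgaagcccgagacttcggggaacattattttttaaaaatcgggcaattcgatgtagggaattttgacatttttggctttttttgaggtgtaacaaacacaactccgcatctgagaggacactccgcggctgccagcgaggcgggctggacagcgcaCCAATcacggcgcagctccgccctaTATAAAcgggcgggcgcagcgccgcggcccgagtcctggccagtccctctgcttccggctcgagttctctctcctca
Hist1h2ae (chr13:23571171-23571470, minus strand): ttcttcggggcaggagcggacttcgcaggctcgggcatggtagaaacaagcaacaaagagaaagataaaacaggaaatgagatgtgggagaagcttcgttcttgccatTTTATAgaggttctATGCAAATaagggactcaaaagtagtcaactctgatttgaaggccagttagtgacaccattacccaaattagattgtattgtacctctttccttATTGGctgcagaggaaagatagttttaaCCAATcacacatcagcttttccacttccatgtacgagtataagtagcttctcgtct
Hist1h1c (chr13:23738557-23738856, plus strand): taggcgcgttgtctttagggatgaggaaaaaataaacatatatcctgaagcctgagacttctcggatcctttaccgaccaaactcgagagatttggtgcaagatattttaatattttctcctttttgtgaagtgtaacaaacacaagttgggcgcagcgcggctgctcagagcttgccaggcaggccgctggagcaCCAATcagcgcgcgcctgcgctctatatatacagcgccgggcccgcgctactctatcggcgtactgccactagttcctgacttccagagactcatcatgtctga
TATAAA was found in 57.4% of the members' windows, against 14.1% of 26964 other promoters. CCAAT was in 85.2% of the members' windows and 37.8% of the others, with all H1, H2A, H2B and H3 windows holding it but 3 of 12 H4 windows. The octamer, which POU factors bind, was in 7 of 17 H2A and 6 of 16 H2B windows and in none of the H1, H3 and H4 windows, against 1.71% of other promoters. In the Hist1h2ae window the TATA box and the octamer are marked as TTTATA and ATGCAAAT, so both lie on the opposite strand. Whether such matches serve the member or a neighbouring gene was not tested. These are matches of letters, and the absence of one says nothing about a factor.

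A few members held most of the counts. Together the members had 52015 UMIs, or 690.9 CPM of all kept cells, and the leading 4, Hist1h2bc (10924 UMIs), Hist1h2ap (8572), Hist1h1c (7730) and Hist1h1e (5212), made up 62.4% of them. The leading 25 held 95.4%. By type, H1 genes held 31.7%, H2A 31.2%, H2B 25.02%, H4 10.1% and H3, in spite of its 12 genes, 1.93%. Counts per gene reflect priming and length as well as message, so these shares compare captured molecules and not histone message.

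In T cells the members were far higher in cycling cells, and members of all 5 histone types were among those called. Cycling T cells numbered 58, 20, 103 and 75 in KO anti-PD-1, KO IgG, WT anti-PD-1 and WT IgG. Summed over all members, they had 4477, 5232, 4549 and 5180 CPM, against 294, 372, 339 and 336 CPM in non-cycling T cells of the same libraries. Of the 31 members tested, 26 reached a mean of 5 UMIs in the non-cycling sums. Of these 26, 19 were higher and 0 lower in cycling T cells (edgeR quasi-likelihood test on sums per library and state with library as a block, Benjamini-Hochberg adjusted p under 0.05), where 12.9% of 9627 genes were higher and 11.8% lower. Their median log2 fold change was 2.14, against -0.10 over all genes. The other 5, Hist1h2ab, Hist1h1a, Hist1h3c, Hist1h2bb and Hist1h2bm, entered the test through their cycling sums alone and were called as well, which makes 24 calls in all but adds no support. The libraries differ in genotype and treatment, and the p-values measure the spread of the state difference over these 4. Without KO anti-PD-1, 22 members were called, a count over all members tested that is to be read against the 24. Cycling T cells were also deeper, with medians of 3362.5, 4805, 4287 and 5486 UMIs against 1518, 1592.5, 2010 and 2396 in non-cycling ones. When every cell was thinned to 1000 UMIs, 14 members could still be tested and 9 were called, all higher.

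Among the linker histones, all 4 that reached the minimum in non-cycling T cells were higher in cycling T cells. Hist1h1b, named H1f5 in RefSeq, which had 150, 941, 727 and 814 CPM in cycling T cells of KO anti-PD-1, KO IgG, WT anti-PD-1 and WT IgG, had 2.28, 4.66, 9.15 and 4.51 CPM in non-cycling ones. The states did not overlap in any library, and KO anti-PD-1 was lowest in both. Its log2 fold change of 6.76 (SE 0.17) was the highest among the members tested. Hist1h1e, or H1f4, had 68.4, 555, 549 and 510 CPM in cycling T cells and 31.9, 57.1, 66.1 and 53.9 CPM in non-cycling T cells, a log2 fold change of 2.83 (SE 0.13). Its lowest cycling value, that of KO anti-PD-1, is only just above the highest non-cycling one. Hist1h1c, or H1f2, had the smallest fold change of the linker histones tested, with 95.7, 75.3, 97.9 and 110 CPM in cycling T cells against 41.6, 63.5, 52.9 and 51.7 CPM in non-cycling T cells, a log2 fold change of 0.81 (SE 0.16, adjusted p = 1.4e-05 by edgeR). Hist1h1d rose by 2.58 on the log2 scale. Hist1h1a had 71 UMIs in cycling and 12 in non-cycling T cells.

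Among the H2A genes that reached the minimum in non-cycling T cells, 6 of 7 were higher in cycling T cells. Hist1h2ap, the most abundant member in these cells, had 3004, 1835, 1412 and 2000 CPM in cycling T cells and 42.2, 30.9, 20.6 and 33.5 CPM in non-cycling T cells of KO anti-PD-1, KO IgG, WT anti-PD-1 and WT IgG. The gap between the states was far wider than the spread of the 4 libraries, with a log2 fold change of 5.88 (SE 0.12). Here KO anti-PD-1 was the highest library in both states. Hist1h2ae had 137, 762, 618 and 645 CPM in cycling and 8.55, 12.8, 10.9 and 11.2 CPM in non-cycling T cells, a log2 fold change of 5.52 (SE 0.15). Hist1h2ak, Hist2h2ac, Hist2h2aa1 and Hist1h2ac rose by 1.89 to 3.75 on the log2 scale. Hist3h2a was the exception, with 4.56, 18.8, 5.44 and 12.4 CPM in cycling against 12.5, 17.5, 17.8 and 14.5 CPM in non-cycling T cells (log2 fold change -0.94, SE 0.43, adjusted p = 0.10 by edgeR).

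H2B split between members that were called and members that were not. Of 6 that reached the minimum in non-cycling T cells, Hist1h2bj, Hist1h2br and Hist3h2ba were higher in cycling T cells, by 1.12 to 3.74 on the log2 scale and in 4 of 4 libraries each. Hist1h2bc, the member with most UMIs over all cells, had 63.8, 65.9, 12.7 and 24.8 CPM in cycling and 30.8, 19.2, 13.7 and 14.2 CPM in non-cycling T cells (log2 fold change 0.69, SE 0.29, adjusted p = 0.071 by edgeR). Its states overlapped across libraries. Hist1h2be and Hist2h2be were not called either, with at most 3 UMIs in any cycling sum. Both H3 genes that reached the minimum, Hist1h3a and Hist1h3e, were higher, with log2 fold changes of 2.79 and 2.19, the second in 3 of 4 libraries. Hist1h3c, which did not reach it, had 9.12, 28.2, 45.3 and 39.3 CPM in cycling T cells, against 0, 0, 0.509 and 0.712 CPM in non-cycling T cells.

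Of 7 H4 genes tested, 4 were higher. Hist1h4d had 41.0, 122, 199 and 192 CPM in cycling T cells and 8.55, 19.8, 24.9 and 20.9 CPM in non-cycling ones, a log2 fold change of 2.85 (SE 0.17). Hist1h4i, with 95.7, 56.5, 67.1 and 47.5 CPM against 14.3, 12.2, 11.4 and 11.6 CPM, had one of 2.27 (SE 0.25). Hist1h4b and Hist1h4h were also called, while Hist1h4c, Hist2h4 and Hist4h4 were not. By transcript model and over the 26 members above, 7 of 7 that end near the stem-loop were higher (median log2 fold change 2.79), as were 9 of 14 that run further (1.505), 1 of 3 without a stem-loop (0.69) and 2 of 2 without an annotated 3′ UTR (5.25).

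**Figure D2:**
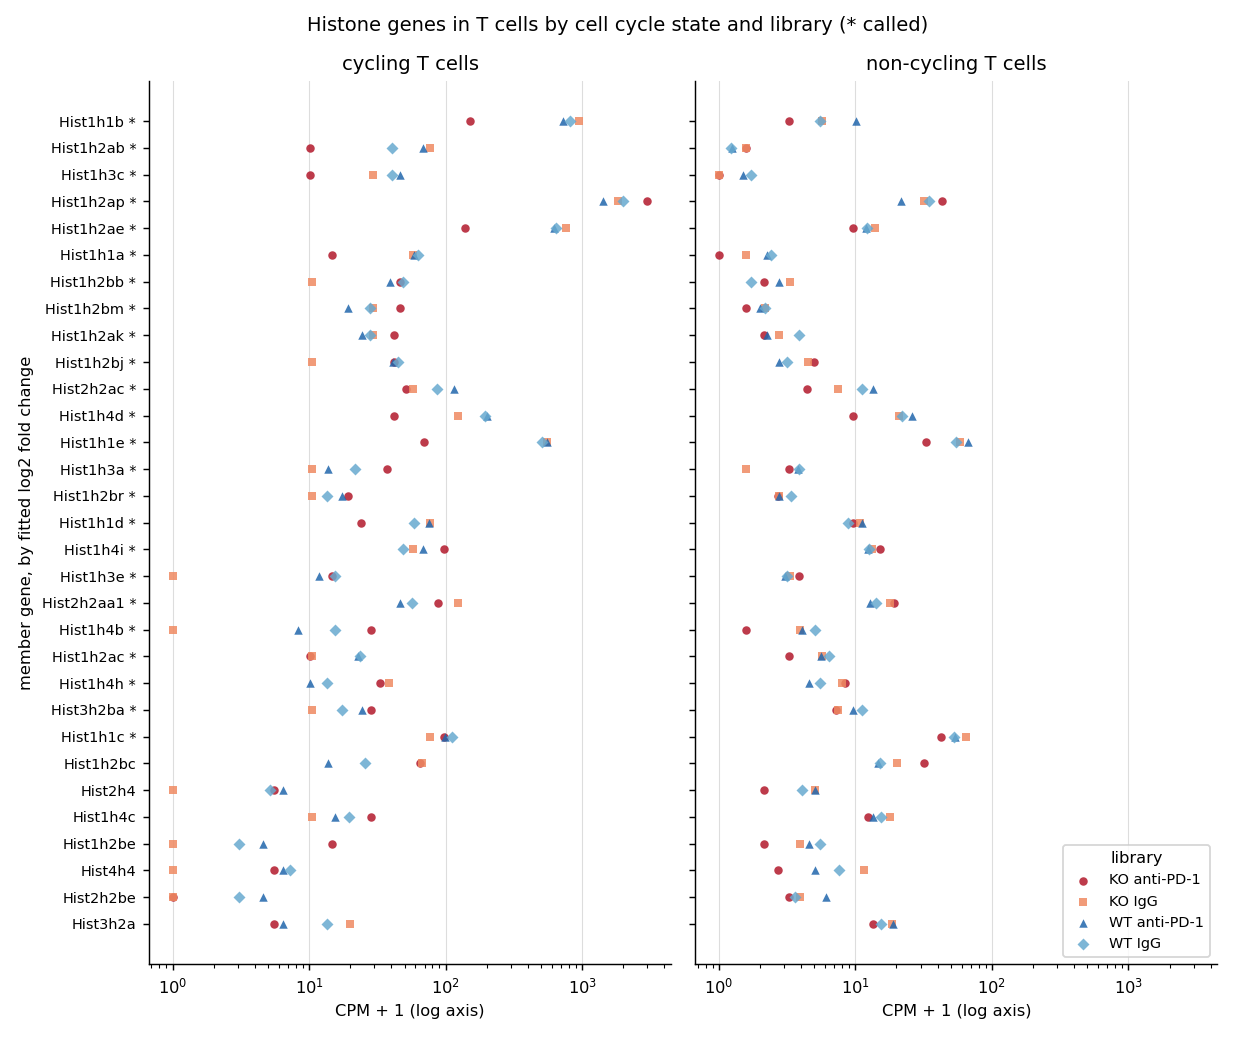
Level of the 31 tested members in cycling (left) and non-cycling (right) T cells of each library; the x axis is CPM + 1 on a log scale, the rows are ordered by fitted log2 fold change and an asterisk marks the 24 called members. Hist1h2ap lies between 1412 and 3004 CPM in cycling T cells and between 20.6 and 42.2 CPM in non-cycling T cells, and KO anti-PD-1 lies left of the other libraries in cycling cells for Hist1h1b, Hist1h2ae and Hist1h1e.

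Chaperones, most replacement histones and some genes that make or process histone messages were higher in cycling T cells. Over all 9627 genes tested, 12.9% were higher and 11.8% lower. All 20 tested S phase genes and all 18 G2 and M phase genes of the lists used were higher in cycling T cells; Mki67 and Top2a are in neither list, but as both mark proliferating cells these counts describe the state and do not test it. Among histone chaperones 5 of 5 were higher, led by Asf1b, the proliferation-linked partner of Asf1a, at a log2 fold change of 4.83 (SE 0.26). Of the replacement histones 7 of 9 were higher, from H2afx at 3.38 and Cenpa, the centromeric H3, at 2.37 to H3f3b at 0.41. Of 13 genes that make or process histone messages, 4 were higher and 0 lower, with Slbp, the stem-loop binding protein, at 1.84 (SE 0.12). Npat, the coactivator of histone gene transcription, had a log2 fold change of 0.56 and was not called (adjusted p = 0.28 by edgeR).

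Cells with many Hist1h2ap molecules were mostly cycling. At least 5 Hist1h2ap UMIs were found in 281 cells of all classes, and 241 of these (85.8%) were cycling by the 2-UMI rule. Among T cells it was 125 of 128. Among tumour cells it was 37 of 61, with 12 of 23 in KO anti-PD-1, 19 of 31 in KO IgG, 3 of 3 in WT anti-PD-1 and 3 of 4 in WT IgG. Summed member levels were 509.2 CPM in cells with no Mki67 or Top2a UMI, 562.7 in cells with 1, 705.8 in cells with 2, 1067 in cells with 3 and 3236 in cells with 4 or more, and the median depths of these cells were 1567, 3563, 6579.5, 6917 and 8997 UMIs.

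Dendritic cells, of which 21, 14, 16 and 21 were cycling, showed the same leading members. Of 14 members tested, 7 were higher and 0 lower in cycling dendritic cells, where 4.97% of 8793 genes were higher and 5.41% lower. Hist1h2ap had 1859, 353, 268 and 641 CPM in cycling and 33.5, 26.3, 17.3 and 26.9 CPM in non-cycling dendritic cells of KO anti-PD-1, KO IgG, WT anti-PD-1 and WT IgG, a log2 fold change of 4.52 (SE 0.22). Hist1h1b, Hist1h2ae, Hist2h2ac, Hist1h4d, Hist1h4i and Hist1h1e followed with 4.15, 3.52, 1.98, 1.75, 1.31 and 1.24. Some of these rest on few counts. Hist2h2ac had 0, 4, 3 and 15 UMIs in the cycling sums and was higher in 3 of 4 libraries. Hist1h4d had 2 UMIs in the cycling sum of KO IgG, or 15.7 CPM against 15.4 CPM in non-cycling cells. Hist1h2bc and Hist1h1c, with 0.27 and 0.31, were not called. Without WT IgG the count was 4 and without KO anti-PD-1 it was 6. When histone and cell cycle genes were allowed into the clustering, 1 member was called. Monocytes and macrophages were not tested, since 6, 7, 20 and 20 of them were cycling; their summed member level was 1937, 2853, 847 and 1370 CPM in cycling and 320, 467, 354 and 403 CPM in non-cycling cells.

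In tumour cells the same leading members were higher in cycling cells, and others were not called. Cycling tumour cells numbered 18, 42, 19 and 13, or 12.59%, 18.50%, 15.97% and 11.02% of tumour cells in KO anti-PD-1, KO IgG, WT anti-PD-1 and WT IgG. Of 14 members tested, 6 were higher and 0 lower in cycling tumour cells, where 6.57% of 9412 genes were higher and 3.73% lower, and the count was again 6 without KO anti-PD-1. Hist1h2ap had 1039, 497, 88.9 and 256 CPM in cycling and 137, 112, 18.4 and 33.6 CPM in non-cycling tumour cells, a log2 fold change of 2.57 (SE 0.16). It was higher in the cycling cells of each library, but the non-cycling cells of KO anti-PD-1 and KO IgG stood above the cycling cells of WT anti-PD-1. Hist1h1b had 36.6, 186, 18.7 and 36.8 CPM against 1.55, 10.6, 3.34 and 1.43 CPM, a log2 fold change of 4.003 (SE 0.30). Hist2h2ac, Hist1h2ae, Hist1h4d and Hist1h1e were higher by 2.47, 2.32, 1.69 and 1.64 on the log2 scale, each in 4 of 4 libraries. Hist1h1c had 60.0, 47.7, 79.5 and 82.3 CPM in cycling and 101, 136, 76.9 and 88.7 CPM in non-cycling tumour cells (log2 fold change -0.63, SE 0.23, adjusted p = 0.10 by edgeR), and was lower in the cycling cells of 3 of 4 libraries. With library left out of the fit 3 members were called, and with cells thinned to 1000 UMIs, where 3 could be tested, 1 was. Cycling tumour cells were deeper too, with medians of 25570, 20661.5, 22988 and 42749 UMIs against 6965, 8447, 6999.5 and 10308 in non-cycling ones.

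The fitted size of the cycling difference differed between the classes for some members. A fit with both classes used a library effect shared by tumour and T cells. Library differences that vary between the classes thus enter its spread. In this fit, 6 of 22 members had a smaller cycling difference in tumour cells than in T cells and 0 a larger one. Over all 10183 genes, 1.12% had a smaller and 1.44% a larger one. For Hist1h2ap the difference of log2 fold changes, tumour minus T cells, was -3.20 (SE 0.44, adjusted p = 0.00018 by edgeR), and for Hist1h2ae -2.96 (SE 0.50). Hist2h2aa1, Hist1h4i and Hist1h1c had -2.17, -1.49 and -1.28. Hist1h1b had -2.56 (SE 0.79) and was not called (adjusted p = 0.087 by edgeR). Hist1h2ab, counted among the 6, had -4.28 but rests on few counts. It had 18 UMIs in cycling and 7 in non-cycling tumour cells, and 66 in cycling and 4 in non-cycling T cells. It could thus pass the filter only through cycling T cells and adds no support. Hist1h1a, Hist1h2bb and Hist1h2bj also had most of their UMIs in cycling T cells, and were tested but not called. Hist1h1a had 0 UMIs in tumour cells, so its difference cannot be estimated. S phase and G2 and M phase genes had smaller differences in tumour cells as well, in 7 of 20 and 9 of 18. Of cells with at least 5 Hist1h2ap UMIs, 24 of 61 tumour cells and 3 of 128 T cells were not cycling by the 2-UMI rule. Of these 24 tumour cells, 11 were in KO anti-PD-1, 12 in KO IgG, 0 in WT anti-PD-1 and 1 in WT IgG. No Mki67 or Top2a UMI was found in 15 of the 24, and 2 held at least 2 UMIs of the S phase genes Rrm2 and Tyms. The part of the 2-UMI rule in the class difference was not tested. The count of members was 3 without KO anti-PD-1, 2 without KO IgG and 2 without WT anti-PD-1.

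**Figure D3:**
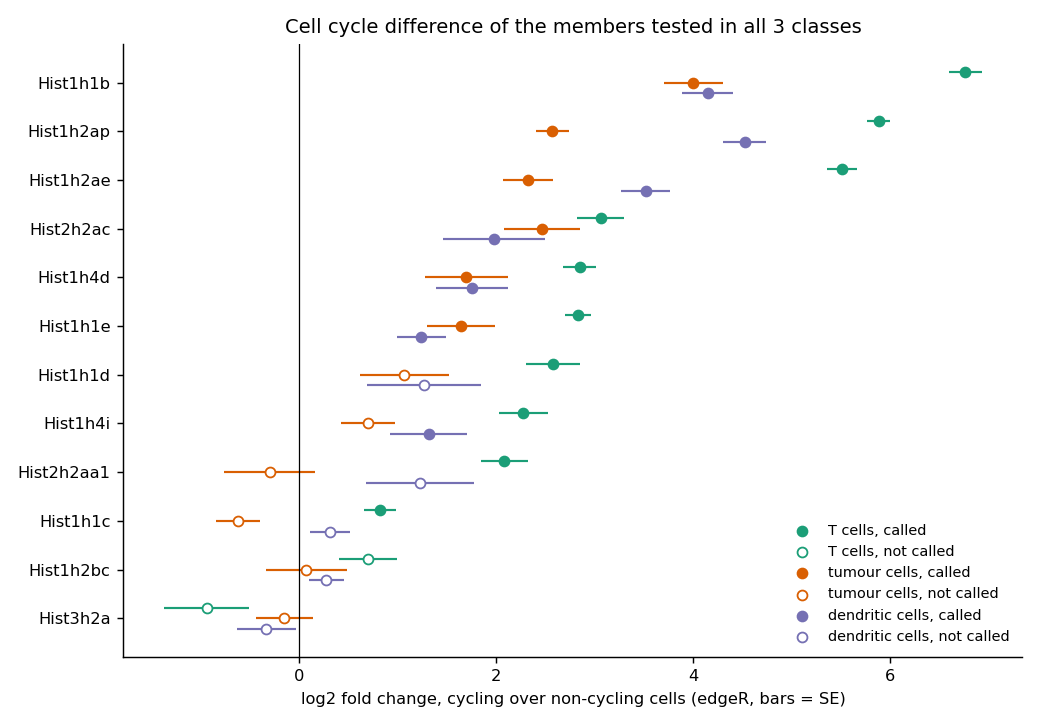
Fitted log2 fold change of cycling over non-cycling cells (x axis, bars are SE) for the 12 members tested in T cells, tumour cells and dendritic cells; filled points are called and open points are not. Hist1h1b and Hist1h2ap lead in all 3 classes, at 6.76 and 5.88 in T cells and 4.003 and 2.57 in tumour cells, while Hist1h2bc and Hist3h2a are called in none.

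Within cycling cells, some members were higher where S phase transcripts were found. Cycling cells of all classes were split by Rrm2 and Tyms, a pair of S phase genes, into 49, 62, 78 and 77 cells with at least 2 UMIs of them and 73, 50, 119 and 87 cells with fewer. Of 30 members tested, 21 reached a mean of 5 UMIs in the cells without S phase transcripts, and 6 of these were higher and 0 lower in the cells with them, where 3.33% of 9272 genes were higher and 4.43% lower. Hist1h2ap had 1846, 981, 820 and 1295 CPM in the cells with, and 984, 294, 185 and 365 CPM in the cells without, a log2 fold change of 1.56 (SE 0.17). Hist1h1b, Hist1h2ae, Hist1h4d, Hist1h1e and Hist2h2ac rose by 1.78, 1.44, 1.15, 0.92 and 0.92. Of the 9 that passed through the cells with S phase transcripts alone, Hist1h1a was called, which makes 7 calls in all. Hist1h1c went the other way in each library, with 77.1, 64.0, 77.8 and 78.4 CPM against 115, 74.4, 135 and 101 CPM, a log2 fold change of -0.59 (SE 0.16) that missed the threshold (adjusted p = 0.059 by edgeR). Of the lists, 18 of 20 S phase genes, Rrm2 and Tyms themselves included, and 3 of 18 G2 and M phase genes were higher. Tumour cells made up 23.3% of the cells with S phase transcripts and 9.12% of those without. Monocytes and macrophages made up 3.38% and 13.4%, so class and phase move together here. The split uses raw counts, and the part of depth in it was not tested. With cells thinned to 1000 UMIs, 7 members could be tested and 5 were called, all higher. Over all members tested, 2 were called without WT anti-PD-1, 3 without WT IgG and 4 without KO anti-PD-1. With library left out of the fit 0 were, and DESeq2 called 5. In the blocked edgeR fit 11 members had an unadjusted p under 0.05, 9 of them higher, with Hist1h1c and Hist3h2a lower. The share of all genes at that level was not counted, so this count adds no support.

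Summed levels in a class with few cycling cells were as high as in T cells. The level was 745, 917, 825 and 970 CPM in neutrophils, of which 4, 0, 5 and 1 cells were cycling, and T cells had 759, 655, 857 and 835 CPM, both in the library order above. Monocytes and macrophages were lowest by the median of the 4 libraries, at 331 to 503 CPM, followed by plasma cells (435 to 1240), dendritic cells (451 to 616), T cells (655 to 857), B cells (475 to 962), neutrophils (745 to 970), tumour cells (596 to 1392) and NK cells (626 to 1407). The ranges of neighbouring classes in this order overlap, except those of dendritic cells and T cells. Different members led. Hist1h2bc made up 40.6% of member UMIs in neutrophils and 40.1% in tumour cells, Hist1h2ap led in T cells (28.2%), NK cells (22.1%) and plasma cells (22.5%), Hist1h1e in B cells (19.3%) and Hist1h1c in dendritic cells (19.3%) and in monocytes and macrophages (21.0%).

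Neutrophils, which are short-lived cells past division, carried Hist1h2bc, Hist1h1c and Hist1h4i as their leading members. Hist1h2bc had 288, 363, 360 and 394 CPM in neutrophils of KO anti-PD-1, KO IgG, WT anti-PD-1 and WT IgG, while T cells had 34.5, 21.9, 13.6 and 15.3 CPM of it. Outside tumour cells and neutrophils it did not pass 128 CPM in any class and library. Hist1h1c had 184, 257, 191 and 266 CPM in neutrophils and at most 154 CPM elsewhere, and Hist1h4i 53.1, 72.4, 81.3 and 82.0 CPM. Hist1h2be, an H2B gene whose transcript model overlaps that of Hist1h1e, had 15.3, 22.1, 19.6 and 21.8 CPM in neutrophils, and its highest value in another class was 4.26 CPM. The level of Hist1h1c differed within neutrophils. In the cluster led by S100a8, S100a9 and G0s2 it was at 359, 503, 288 and 406 CPM, in the cluster led by Retnlg, S100a8 and S100a9 at 106, 119, 144 and 146 CPM, and in the cluster led by G0s2, Gm5483 and S100a8 at 93.2, 108, 54.5 and 109 CPM. The first does not overlap the others. Hist1h2bc was at 347, 460, 393 and 456 CPM in the first of these clusters and at 281, 332, 354 and 379 CPM in the second. The cluster led by Camp, Ngp and Ltf, genes of immature neutrophils, held 17, 12, 7 and 5 cells and 46.5, 34.0, 29.1 and 46.1 CPM of Hist1h2bc. Hist3h2a had its highest levels in B cells, with 49.0, 61.1, 90.4 and 94.5 CPM.

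**Figure D4:**
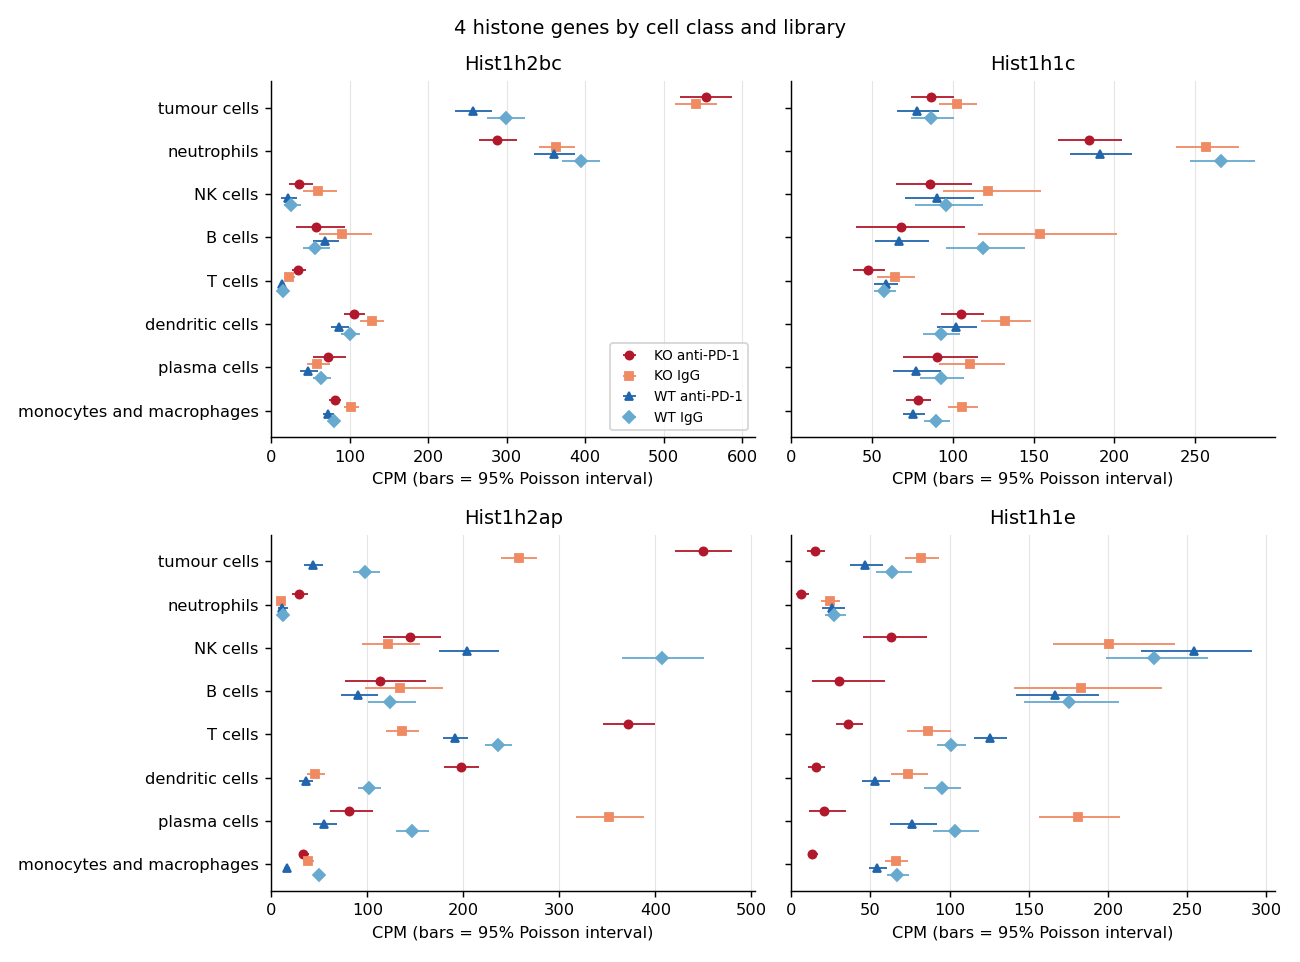
Levels of Hist1h2bc, Hist1h1c, Hist1h2ap and Hist1h1e (x axes, CPM, bars are 95% Poisson intervals) in 8 cell classes (rows) and 4 libraries (colours). Hist1h2bc and Hist1h1c are high in neutrophils (288 to 394 and 184 to 266 CPM), Hist1h2ap is low there (9.75 to 28.9 CPM), and Hist1h1e is lowest in KO anti-PD-1 in each class.

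In tumour cells, the members summed were higher in the Asf1a-knockout libraries, in non-cycling cells under both treatments. The summed level was 1340 and 1392 CPM in KO anti-PD-1 and KO IgG, against 596 and 759 CPM in WT anti-PD-1 and WT IgG. With 1 library per group there is no test of genotype or treatment, and the intervals below cover counting error only. KO IgG over WT IgG gave a ratio of 1.84 (1.73 to 1.95), which was 2.57 in non-cycling and 1.15 in cycling tumour cells. KO anti-PD-1 over WT anti-PD-1 gave 2.25 (2.09 to 2.41), with 2.42 in non-cycling and 2.08 in cycling cells. KO anti-PD-1 over KO IgG gave 0.962 (0.916 to 1.01) and WT anti-PD-1 over WT IgG 0.786 (0.727 to 0.850). The last ratio turned to 1.04 when each cell counted equally and to 1.205 when cells were thinned. For KO IgG over WT IgG, 7 of 16 members with at least 20 UMIs were 2-fold higher and 0 2-fold lower, where 5.67% of 9618 genes were 2-fold higher and 6.97% 2-fold lower. For KO anti-PD-1 over WT anti-PD-1 it was 5 of 15 higher and 1 lower, against 5.08% and 5.83% of 9064 genes. For KO anti-PD-1 over KO IgG, 0 of 18 were higher and 6 lower (4.33% and 4.99% of 9607 genes), and for WT anti-PD-1 over WT IgG 1 of 12 was higher and 2 lower (2.21% and 2.89% of 9057 genes). The comparisons of treatment and of genotype share libraries and are not independent.

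The member with most UMIs, Hist1h2bc, was higher in the KO libraries, and the other members summed were as well. It had 554 and 541 CPM in tumour cells of KO anti-PD-1 and KO IgG, against 257 and 299 CPM in those of WT anti-PD-1 and WT IgG. In non-cycling tumour cells it had 680 and 681 CPM in the KO libraries and 194 and 172 CPM in the WT libraries, whereas in cycling tumour cells it had 315 and 311 CPM in the KO libraries and 376 and 607 CPM in the WT libraries. The KO libraries were thus above WT in non-cycling cells and below WT in cycling cells. Tumour sub-clusters differed. Of 10 with cells of all 4 libraries, 6 had both KO levels of Hist1h2bc above both WT levels. Some of these rest on few cells. The one led by Krt8, Krt19 and Krt18 had 3 cells in each of KO IgG, WT anti-PD-1 and WT IgG, with 3 UMIs in each WT library. The one led by Rbp4, Krt18 and Lgals2 had 2 cells and 7 UMIs in KO IgG. Sub-clusters come from the same 4 libraries and are not replicates. In the sub-cluster led by Lgals2, Wfdc2 and Krt8 Hist1h2bc had 879 and 770 CPM in KO anti-PD-1 and KO IgG, against 148 and 160 CPM in WT anti-PD-1 and WT IgG, from 82, 100, 21 and 18 UMIs. In the sub-cluster led by Rbp4, Lgals2 and Krt18 it had 902 and 778 CPM, against 242 and 199 CPM. The order did not hold in the sub-cluster led by Krt18, Krt8 and Lgals2, where 12, 18, 11 and 3 of 13, 20, 15 and 3 cells were cycling and Hist1h2bc had 300.1 and 300.1 CPM in KO anti-PD-1 and KO IgG, against 333 and 826 CPM in WT anti-PD-1 and WT IgG. Nor did it hold in those led by Lgals2, Krt18 and Krt8 (769 and 320 CPM, against 190 and 778 CPM), by Lgals2, Wfdc2 and Rbp4 (284 and 133 CPM, against 130 and 155 CPM) and by Rbp4, Lgals2 and Krt8 (478 and 0 CPM, against 142 and 31.1 CPM). Sub-clusters were unequally filled, and the one led by Lgals2, Krt19 and Rbp4 had 11, 14 and 17 cells in KO anti-PD-1, WT anti-PD-1 and WT IgG and none in KO IgG. Host cells give the background for this gene. In neutrophils KO IgG over WT IgG was 0.921 and KO anti-PD-1 over WT anti-PD-1 0.800, in monocytes and macrophages 1.28 and 1.11, in dendritic cells 1.27 and 1.21, and in T cells, where levels are low, 1.43 and 2.53. Leaving Hist1h2bc out, the summed ratios of KO to WT were 1.85 for IgG and 2.32 for anti-PD-1. The sum for anti-PD-1 still holds Hist1h2ap, at 449 CPM in KO and 43.0 CPM in WT, and no sum without both genes was made. The median log2 ratio of KO to WT was 0.91 over the 16 members measured for IgG and 0.40 over the 15 for anti-PD-1.

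Other members differed in their order. Hist1h4i had 50.4 and 65.8 CPM in non-cycling tumour cells of KO anti-PD-1 and KO IgG, against 15.9 and 19.3 CPM in WT anti-PD-1 and WT IgG, and 84.9, 54.1, 56.1 and 47.3 CPM in cycling ones. Hist1h2ap had 449 and 257 CPM over all tumour cells of the KO libraries, against 43.0 and 98.0 CPM in the WT libraries, and 1 cell of WT IgG held 58.5% of the UMIs behind its value. Hist1h1e went with the host pattern, with 15.2 CPM in KO anti-PD-1, against 81.9, 46.8 and 64.0 CPM in KO IgG, WT anti-PD-1 and WT IgG. Hist1h1b, with 13.7, 77.0, 8.71 and 11.7 CPM, and Hist1h2ae, with 28.9, 113, 16.9 and 46.2 CPM, were highest in KO IgG. The 6 members that were 2-fold lower in KO anti-PD-1 than in KO IgG include Hist1h1e, Hist1h1b, Hist1h2ae, Hist1h4d and Hist2h2ac, which were also low in the host cells of that library. Hist1h1c had 86.6 and 103 CPM in the KO libraries and 77.8 and 86.8 CPM in the WT libraries, and the intervals of its ratios include 1.

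**Figure D5:**
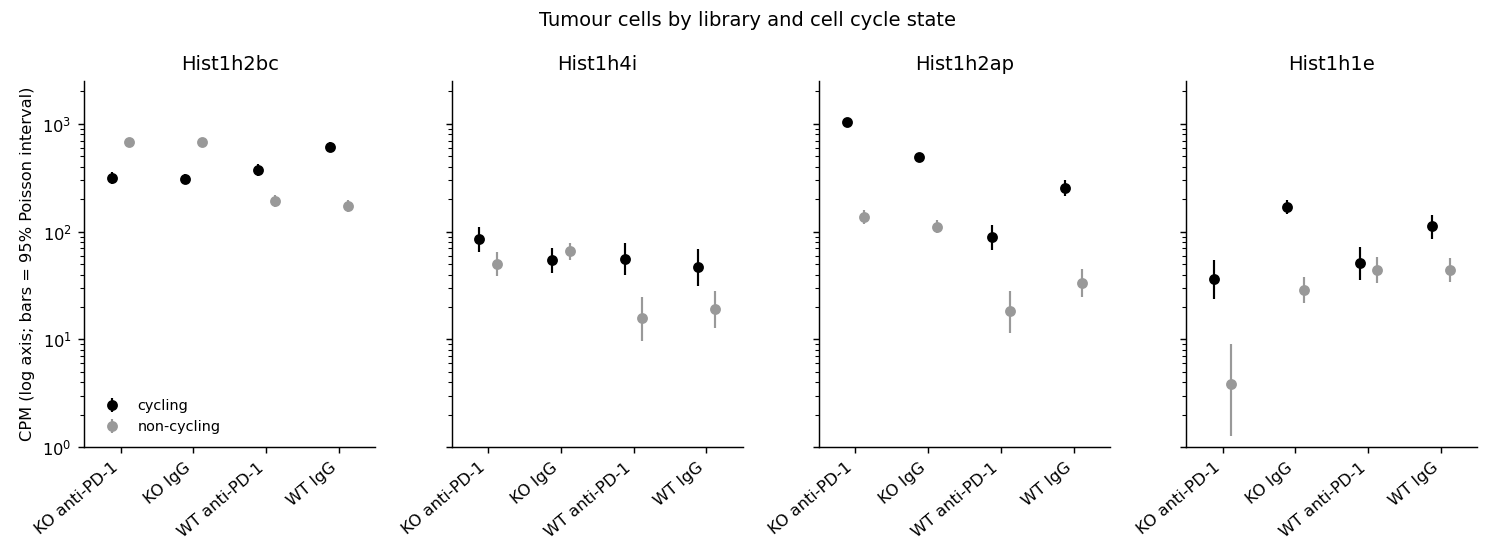
Levels of Hist1h2bc, Hist1h4i, Hist1h2ap and Hist1h1e in tumour cells (y axis, CPM on a log scale, bars are 95% Poisson intervals) by library and state. Non-cycling KO cells hold 680 and 681 CPM of Hist1h2bc, against 194 and 172 CPM in WT, and Hist1h1e is lowest in KO anti-PD-1 in both states.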

How the data were processed

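The deposited matrices hold UMI counts per gene and barcode, made by the authors with Cell Ranger 3.0.0 per the file headers; bcl2fastq and Cell Ranger are named in the submitters' processing notes, which also give the build hg19, while all 31053 gene IDs are mouse Ensembl IDs. The genome build of the counts is therefore not established. Reads were not used. Intronic reads, the treatment of reads shared between copies and further settings are not given in the sources used here. Only 1 barcode list of 6074 entries was given and it matches the WT IgG matrix, so barcodes shared between libraries could not be counted.

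Cells were kept with at least 200 genes, at most 10% mitochondrial UMIs and a Scrublet score (scanpy 1.11.5) of at most 0.25, a fixed limit, since the automatic threshold marked 0, 3, 98 and 75 cells of KO anti-PD-1, KO IgG, WT anti-PD-1 and WT IgG. Counts were scaled to 10000 per cell, and 2000 variable genes less the histone and cell cycle genes (1983), 30 components and Leiden clustering at resolution 1 gave 24 clusters, named from marker lists. Tumour cells came from a second clustering of the epithelial cells.

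State contrasts were fitted with edgeR 4.0.16 (R 4.3.3) on counts summed per library and state, with TMM factors, library as a block and genes with a mean of at least 5 UMIs per sum; p-values were adjusted over all genes tested, and calls are at 0.05. The library number pairs both states, since they are cells of the same suspension. In the fit with both classes the library effect was shared by tumour and T cells, so states were not paired within each class. DESeq2 1.42.0 was an alternative. Monocytes and macrophages were planned as another class but had under 10 cycling cells in both KO libraries, so dendritic cells took their place, a choice made after seeing the data. On simulated counts with 200 changed genes, 81% of 4-fold and 87% of 8-fold changes were recovered in the T cell design and 91% and 96% in the tumour design, where 12.2% of calls were false. Libraries were compared as ratios of CPM with exact conditional Poisson 95% intervals for genes with at least 20 UMIs in both together, with no test, as each group is 1 library. Intervals cover counting error only. With libraries of 16078095 to 22506737 UMIs, a member with no UMI in the summed cells of a class may still be present under the limit of 3 counts.

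Named members are the 25 with most UMIs and every member called in a state fit. The members and gene lists were chosen with earlier results of these data known. Sequences come from GENCODE M21 (GRCm38) transcripts and RefSeq promoters, matched by gene ID or symbol. Alternatives were other normalizations, no filter, no block, leaving out each library, other cut-offs for cycling, doublets and mitochondria, thinning to 1000 UMIs and other cell weights.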

Additional observations from a re-analysis of the deposited data

Results flagged for a closer look

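The interaction fit found a smaller cycling difference in tumour cells than in T cells for 6 members, and the difference between the classes is what draws attention to them. On the log2 scale, tumour minus T cells, it was -4.28 for Hist1h2ab, -3.20 for Hist1h2ap, -2.96 for Hist1h2ae, -2.17 for Hist2h2aa1, -1.49 for Hist1h4i and -1.28 for Hist1h1c (adjusted p between 0.00018 and 0.041 by edgeR's quasi-likelihood test). For Hist1h1c the fitted changes were -0.63 in tumour cells and 0.81 in T cells, and for Hist2h2aa1 -0.30 and 2.08. Hist1h2ab was not tested in tumour cells alone, and its value rests on 4 UMIs in non-cycling T cells and 7 in non-cycling tumour cells, so it could pass the count filter only through cycling T cells. Tumour cells and T cells also differ in depth, with 25570, 20661.5, 22988 and 42749 median UMIs in cycling tumour cells of KO anti-PD-1, KO IgG, WT anti-PD-1 and WT IgG and 3362.5, 4805, 4287 and 5486 in cycling T cells; the part of depth was not tested. The number of such members fell to 2 without KO IgG, 2 without WT anti-PD-1 and 3 without KO anti-PD-1.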

How the results depend on the processing

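Of 842 values of single members under the alternatives, 744 kept direction and side of the threshold, 87 fell short of it, 10 passed it and 1 turned: Hist2h2ac in dendritic cells had -0.24 when histone and cell cycle genes were allowed in the clustering. The following counts of calls are over all members tested, also those that could pass the filter through 1 state alone. They are thus to be read against 24 in T cells and 7 in the split, not 19 and 6. Called members went to 41 in T cells and 11 in the interaction without a count filter. With cells thinned to 1000 UMIs (fewer members tested) they went to 9 in T cells, 1 in tumour cells, 1 in dendritic cells and 3 in the interaction. They went to 1 in dendritic cells when histone and cell cycle genes were allowed in the clustering. A cycling minimum of 1 gave 20 in the S phase split and 3 in the interaction, and a minimum of 3 gave 3 in the split. Without the library as a replicate block, which pairs both states of a library, the counts were 3 in tumour cells, 0 in the split, 1 in the interaction and 24 in T cells. Leaving out 1 library gave 21 to 26 in T cells, 5 to 7 in tumour cells, 4 to 7 in dendritic cells, 2 to 6 in the split and 2 to 4 in the interaction. Some alternatives called members lower. In tumour cells it was 1 without a count filter, without WT IgG and at a cycling minimum of 1 or 3. It was also 1 there against cells with 0 Mki67 and Top2a UMIs, and with states set by Rrm2 and Tyms. That last rule gave 1 lower in T cells and 1 in dendritic cells. In the split it was 1 without a count filter, 1 without KO IgG and 2 at a cycling minimum of 1.

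Summed tumour ratios were, for KO IgG over WT IgG, 2.18 by mean over cells, 2.03 thinned, 2.09 without the top cell of each library, 1.15 in cycling and 2.57 in non-cycling cells. WT anti-PD-1 over WT IgG turned to 1.04 by mean over cells and 1.205 thinned, and was 0.595 in cycling and 0.953 in non-cycling cells and 0.882 without the top cells. KO anti-PD-1 over KO IgG was 1.07 by mean over cells, 1.17 thinned, 1.07 in cycling and 0.898 in non-cycling cells. KO anti-PD-1 over WT anti-PD-1 was 1.97 thinned, 2.08 in cycling and 2.42 in non-cycling cells. The cause of these moves was not tested. The 13 to 42 cycling tumour cells per library limit the precision of every tumour state value.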

Other observations

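The genes that shared the low level of Hist1h1e in the host cells of KO anti-PD-1 were not all histones. Of 10065 genes with at least 200 UMIs in non-tumour cells, 17 (0.169%) were at least 1.5-fold under the lowest other library in 6 or more of 7 classes, a rule chosen after the values were seen, and 4 of them were among the 20 members that could be counted. These were Hist1h1e, Hist1h2ae, Hist1h1b and Hist1h4d. Among the other 13, Gm42418 had 174 CPM in KO anti-PD-1, against 1344, 1476 and 1405 CPM in KO IgG, WT anti-PD-1 and WT IgG, and the mitochondrial gene mt-Atp8 had 31.7 CPM, against 64.4, 99.7 and 86.3 CPM. Lyst, a regulator of lysosomal trafficking, had 47.6 CPM in KO anti-PD-1 and 106, 80.7 and 86.7 CPM in the others. In the opposite direction 8 genes passed the same rule and no member was among them. Scgb1a1, the secretoglobin of airway club cells, was one, with 3574 CPM in KO anti-PD-1 and 22.1, 131 and 744 CPM in the others.

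Asf1b, the other Asf1 chaperone, had 24.8 and 11.1 CPM in tumour cells of KO anti-PD-1 and KO IgG, against 8.16 and 4.57 CPM in those of WT anti-PD-1 and WT IgG. Most of its UMIs lay in cycling tumour cells, with 65.9, 23.9, 18.7 and 14.0 CPM from 45, 26, 12 and 8 UMIs in the same order. In non-cycling tumour cells it had 3.10, 3.35, 2.51 and 0.715 CPM, from 4, 6, 3 and 1 UMIs. It was not compared by a test.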
